A study of Mus musculus with 12 samples.

Results

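Complement and coagulation factors, the plasma proteins that attack microbes and clot blood, were followed as a group of 39 genes listed by name. A gene was taken up where the array had a probe set, a group of probes read as 1 value, that named this gene alone, and where several did, the 1 of highest mean signal was used. Of the 39 genes, 35 had such a probe set, out of 30063 genes in all, and all 35 were among the 19985 genes whose mean signal was high enough to be tested. Klkb1 shared its probe set with the cytochrome gene Cyp4v3, and C3, Cfd and Cpb2 were not analysed here.

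Liver RNA was measured on 12 arrays, 1 for each mouse, after repeated oral dosing with silver nanoparticles (AgNPs). The strain was C57BL/6J -Oca2p-un/J, so control and exposed mice alike carried the pink-eyed unstable allele of Oca2, a pigmentation gene, and all were 3 months old. The 3 groups of 4 mice received water (control), 20 nm particles with a citrate surface (cit-AgNP) or 20 nm particles with a polyvinylpyrrolidone surface (PVP-AgNP), the particles at 4 mg of silver per kg by gavage on 7 days, and livers were taken 24 h after the last dose. Each group held 2 females and 2 males: control replicates 2 and 4 and replicates 1 and 2 of both exposed groups were female, and the others were male. Citrate is a small charged ion and polyvinylpyrrolidone an uncharged polymer, and both keep the particles dispersed.

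The liver makes most circulating complement and clotting proteins, and hepatocytes secrete them as inactive precursors. In complement, antibody (the classical pathway), sugars on microbes (the lectin pathway) or spontaneous turnover (the alternative pathway) start a chain of proteases that ends in the terminal proteins, which assemble into a pore in the target membrane. In coagulation, tissue factor or contact with a foreign surface starts a chain of proteases that ends in thrombin and fibrin, and anticoagulants and the fibrinolytic system limit and dissolve the clot. Several of these genes belong to the acute phase response, in which inflammatory cytokines change the output of the liver, and the liver of male and female mice differs in many secreted proteins.

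The area that separates exon from intron control probe sets, a measure of array quality, was lowest on PVP-AgNP replicates 1 and 4, at 0.778 and 0.794, and lay between 0.804 and 0.842 on the other 10 arrays. All 10 hepatocyte markers passed the filter on low signals, among them Hnf4a, at 11.1 to 12.1 (log2) over the 12 arrays, and Alb, which stood at the ceiling of the table on every array. Their summed log2 signal lay between 22.92 and 23.01 and is set largely by such genes at the ceiling. Nothing in the labels ties replicates across groups, and p-values measure the spread between these mice.

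The 35 genes gave strong signals, and the spread between mice differed widely from gene to gene. On the log2 scale of the table, the mean signal over the 12 arrays ran from 5.28 for F3, the tissue factor that starts clotting, to 19.61 for Plg, the precursor of the clot-dissolving protease plasmin. Of the 35 genes, 34 lay above the median signal of all genes tested and 31 in the top 10% of them, although signals of different probe sets also depend on their probes and do not rank the amounts of RNA. The distance between the highest and the lowest of the 12 arrays had a median of 1.38 over the genes. It was under 1 for 11 genes and above 3 for 6, which were C6, C8a, C8b, C9, F11 and C4b. The terminal complement genes thus held 4 of the 6 widest ranges.

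None of the 35 genes reached the ceiling of the table, a log2 signal of 19.93, although PVP-AgNP replicate 2 came near it with 19.87 for Plg. Another feature of the table limits what can be seen for the strongest signals. Plg had exactly the value 19.61 on 9 of the 12 arrays, F2 had 17.21 on 6, Kng1 17.21 on 6, Serpinc1 15.001 on 6 and Cfi 18.15 on 4. Identical values of this kind, on 4 or more arrays, were found in 31.8% of the 585 tested genes with a mean above 15 and in 0.237% of the other 19400. What produces them was not tested, and differences of these 5 genes between groups may be understated.

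**Figure D1:**
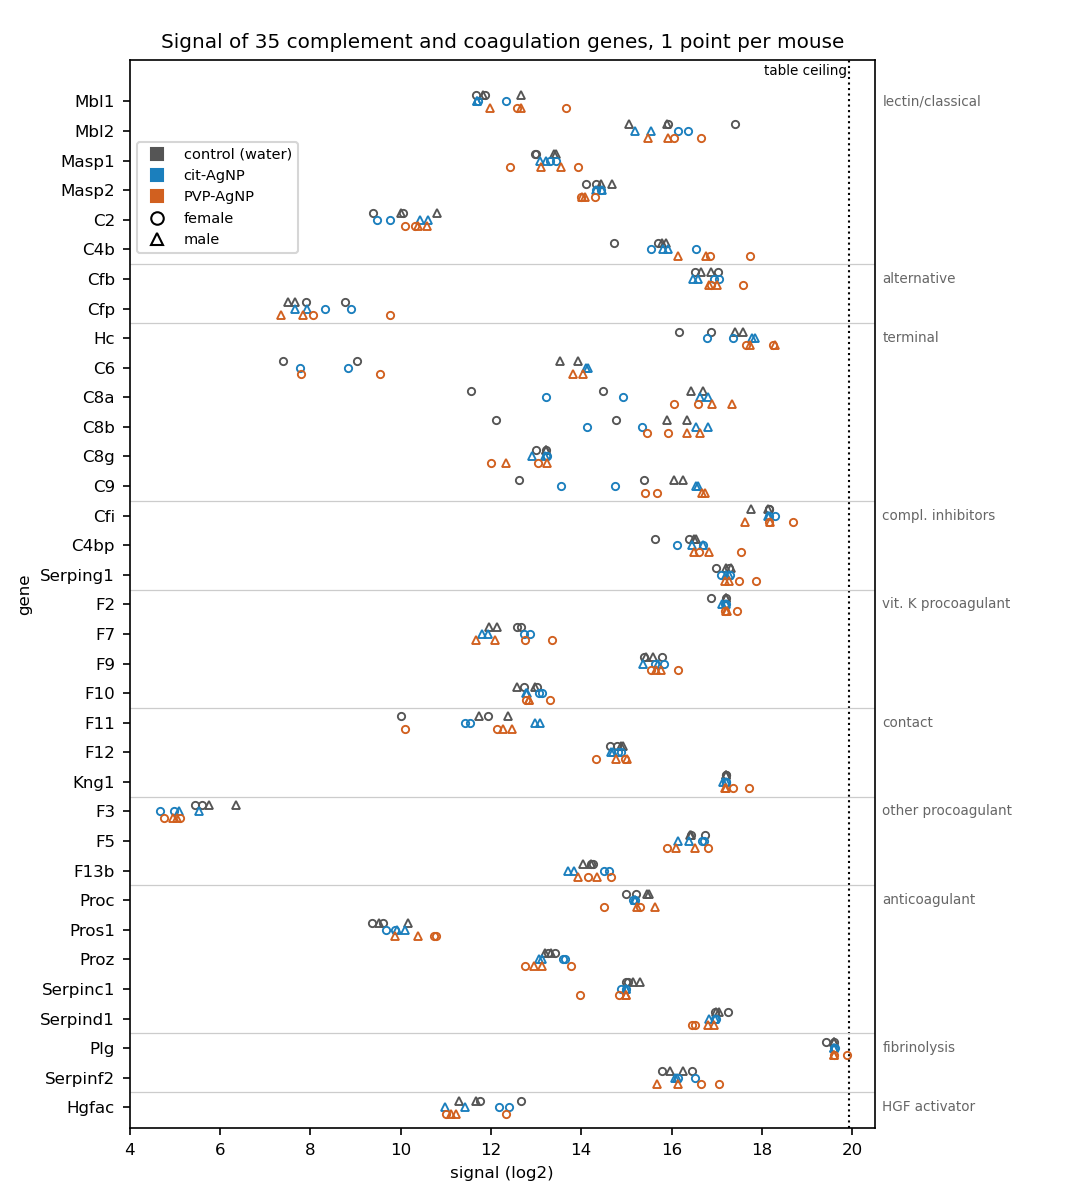
Log2 signal (horizontal axis) of each of the 35 genes (vertical axis, ordered by role) in every mouse. Colours mark the group, circles females and triangles males, and the dotted line the ceiling of the table at 19.93. C6 separates the sexes with no overlap, while Plg, F2 and Kng1 vary by less than 0.6 over the 12 mice.

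The comparisons of each coating with water asked whether these liver genes respond to the particles. With the citrate coating, 0 of the 35 genes passed the threshold (limma, Benjamini-Hochberg adjusted p under 0.05 over all genes tested), against a background of 0.005% of all genes, and 1 gene, F3, reached an unadjusted p under 0.05, against 6.57%. With the PVP coating, 0 passed, against 0.04%, and 10 reached an unadjusted p under 0.05. These 10 are 28.6% of the genes, and the same holds for 20.3% of all genes tested. Of them, 6 were higher (8.05% of all genes) and 4 lower (12.2%). The higher ones were Hc, C4b, Pros1, C8a, C8b and C4bp, and the lower ones were F3, Serpind1, Serpinc1 and Masp2.

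As a group, the genes lay slightly above control with both coatings. The median log2 difference was 0.05 with citrate, with 22 of 35 genes above 0 (62.9%, against 50.1% of all genes tested). For PVP it was 0.15, with 24 of 35 above 0 (68.6%, against 49.3%). Over all genes tested the medians were 0.0004 and -0.0023. Both coatings were set against the same 4 control mice, so their values are not independent of each other. Single mice carried much of these medians. Without control replicate 4, the citrate median was -0.04, with 14 of 35 genes above 0, and the PVP median 0.06. Leaving out PVP-AgNP replicate 2 gave a PVP median of 0.02, with 18 of 35 above 0.

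Control replicate 4 and PVP-AgNP replicate 2, both females, stood apart for these genes. Control replicate 4 was the lowest of all 12 arrays for 14 of the 35 genes, and PVP-AgNP replicate 2 the highest of all 12 for 19. Set against the mean of the controls of its own sex, the median gene of the 35 lay at 0.54 on PVP-AgNP replicate 2 and between -0.07 and 0.23 on the other 7 exposed arrays. On PVP-AgNP replicate 1, the array of lowest quality, 8 genes were the lowest of the 12. The same counts were not made over all genes tested. They cannot show whether these arrays stood apart more for the 35 genes than for others.

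Markers of inflammation and of immune cells were also high on PVP-AgNP replicate 2. Against same-sex controls, the median of 20 acute phase genes, such as the serum amyloid genes Saa1 and Saa2, was 2.26 on PVP-AgNP replicate 2, 1.05 on PVP-AgNP replicate 1, 0.995 on cit-AgNP replicate 1 and at most 0.72 on the other exposed arrays. With PVP, 20 of the 20 acute phase genes were above 0, with a median of 0.98, and 0 passed (limma, 14 at an unadjusted p under 0.05). The 8 Kupffer cell markers were all above 0 with each coating, with summed log2 signals of 11.63 to 12.67 in control livers, 11.63 to 13.37 with citrate and 12.02 to 14.53 with PVP, the highest on PVP-AgNP replicate 2. All 7 tested neutrophil markers of 8 were also above 0 with each coating, and their summed log2 signals were 7.51 to 10.12 in control livers, 9.45 to 10.18 with citrate and 9.40 to 12.69 with PVP, again highest on that array. Against same-sex controls, however, the median neutrophil marker lay at 0.874 on PVP-AgNP replicate 2 and at 0.886 on cit-AgNP replicate 4. The defining Kupffer cell marker Clec4f lay between 9.54 and 11.67 over all groups, and the neutrophil marker Ngp was below the filter on low signals. Markers of other liver cells lay on the other side of control with PVP. Of 6 stellate cell markers, 0 were above 0 with either coating, and with PVP 3 were lower at an unadjusted p under 0.05, with a median of -0.41 (summed log2 signals of 12.28 to 13.16 in control livers, 11.87 to 12.66 with citrate and 11.59 to 12.88 with PVP). Of 6 endothelial markers, 1 was above 0 with PVP and 2 were lower at an unadjusted p under 0.05, with a median of -0.33, while with citrate 4 were above 0 (11.49 to 11.74, 11.39 to 11.97 and 11.01 to 11.77). None of these markers passed (limma). The part of these cells and of the acute phase in the values given here was not tested. In whole liver, fewer cells of a type cannot be told apart from less RNA per cell.

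**Figure D2:**
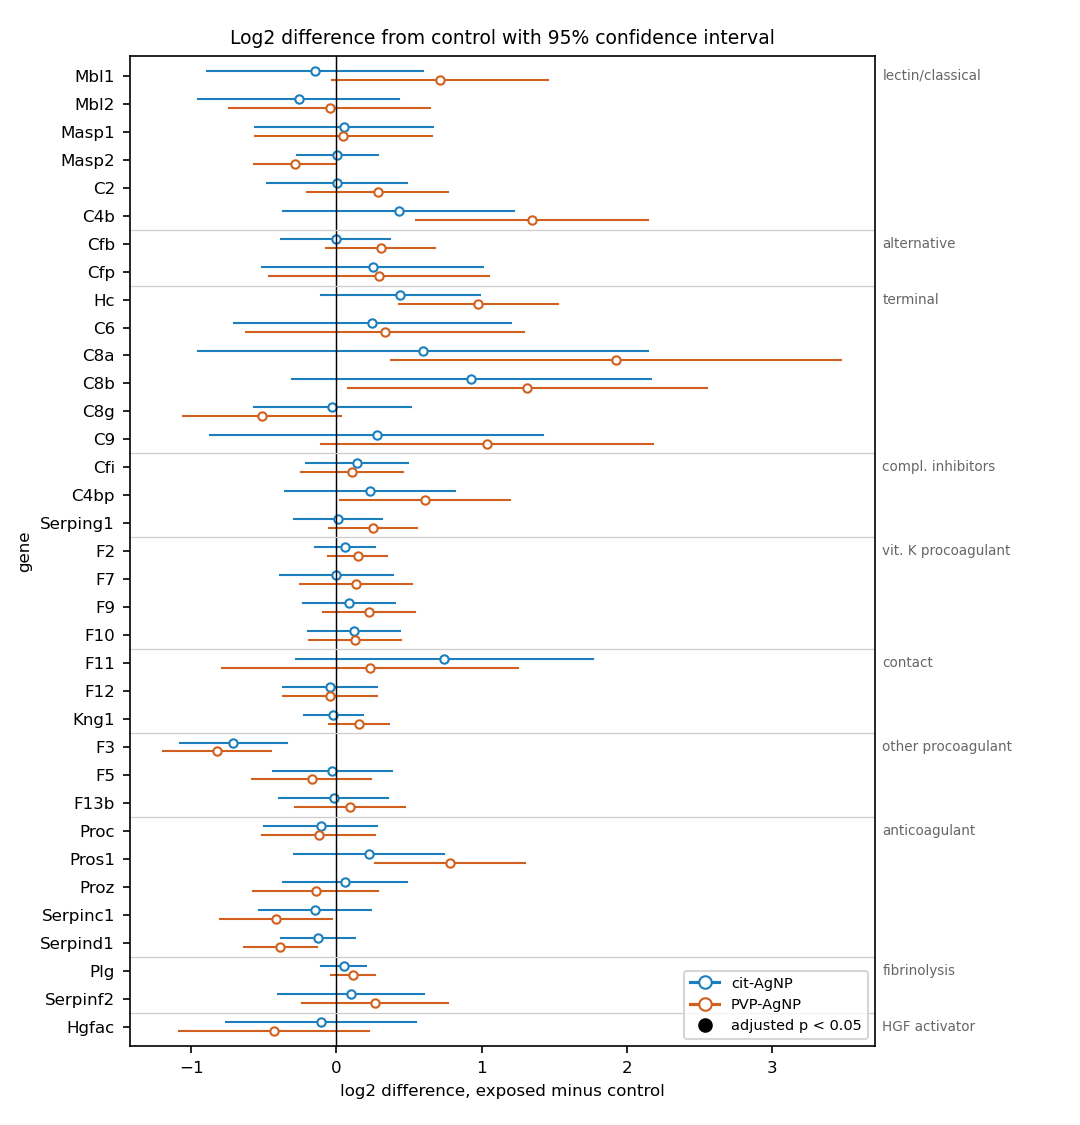
Log2 difference from control (horizontal axis) with its unadjusted 95% confidence interval for each of the 35 genes (vertical axis, ordered by role), citrate in blue and PVP in orange. Filled points would mark an adjusted p under 0.05, and none of the 35 genes has one. The widest intervals belong to C8a, C8b, C9, C6 and F11, and F3 lies below 0 with both coatings.

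Among the genes that start the lectin and classical pathways, C4b had the largest difference, and in the PVP group. C4b encodes the fourth complement component, which is split and bound to the target after recognition. Its log2 signals were 15.87, 15.70, 15.79 and 14.73 in control replicates 1 to 4, 16.55, 15.54, 15.81 and 15.91 with citrate, and 16.84, 17.73, 16.15 and 16.75 with PVP. Every PVP array lay above every control array, while citrate and control overlapped. The log2 difference was 1.35 with PVP (SE 0.36, limma adjusted p = 0.126) and 0.43 with citrate (SE 0.36, limma adjusted p = 0.965), and neither passed. The citrate value was 0.11 without control replicate 4 and 0.23 without cit-AgNP replicate 1. C4b has a near-identical neighbour in the mouse genome, C4a, and the sources used here do not say whether its probes tell them apart.

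Mbl1, a mannose-binding lectin that recognises microbial sugars, had log2 signals of 12.67, 11.87, 11.83 and 11.68 in control livers, 12.33, 11.72, 11.70 and 11.70 with citrate and 12.59, 13.65, 12.66 and 11.98 with PVP. Only PVP-AgNP replicate 2 lay above the highest control mouse. PVP minus control was 0.71, which did not pass (SE 0.34, limma adjusted p = 0.264). Masp2, the protease that the lectins activate, gave 14.44, 14.33, 14.68 and 14.11 in control livers, 14.45, 14.34, 14.33 and 14.47 with citrate and 14.00, 14.30, 14.08 and 14.01 with PVP. The PVP arrays thus overlapped the controls only through control replicate 4, and the difference of -0.29 did not pass (SE 0.13, limma adjusted p = 0.233). The other 3 genes of this role, Mbl2, Masp1 and the protease C2, had differences between -0.26 and 0.29 with either coating.

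In the alternative pathway, Cfb, the protease of its convertase, averaged 16.76 ± 0.22 in control livers, 16.76 ± 0.28 with citrate and 17.07 ± 0.36 with PVP (log2, mean ± SD, n = 4 each). Cfp, or properdin, which stabilises that convertase and is made mainly by leukocytes, averaged 7.96 ± 0.56, 8.21 ± 0.54 and 8.25 ± 1.05 in the same order. For both genes the groups overlapped.

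The terminal genes gave the largest values of the treatment comparisons. With PVP, 5 of the 6 lay above control, with a median log2 difference of 1.01, and with citrate 5 of 6, with a median of 0.36. Hc encodes the fifth complement component, whose cleavage starts the membrane pore and releases an inflammatory peptide. Its log2 signals were 17.40, 16.87, 17.58 and 16.17 in control livers, 17.36, 16.79, 17.86 and 17.78 with citrate and 17.64, 18.26, 17.73 and 18.29 with PVP. All 4 PVP arrays lay above all 4 control arrays. The log2 difference was 0.98 with PVP (SE 0.25, limma adjusted p = 0.117) and 0.44 with citrate (SE 0.25, limma adjusted p = 0.867), and neither passed, and the citrate value was 0.24 without control replicate 4. Quantile normalization between arrays gave a PVP value of 0.68 (SE 0.22, limma adjusted p = 0.176).

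C8a and C8b encode the alpha and beta chains of the eighth component, which inserts into the membrane. C8a gave 16.44, 14.49, 16.71 and 11.55 in control livers, 14.92, 13.21, 16.81 and 16.64 with citrate and 16.06, 16.59, 16.90 and 17.33 with PVP. C8b gave 15.89, 14.77, 16.35 and 12.11 in control livers, 15.35, 14.12, 16.80 and 16.55 with citrate and 15.47, 15.92, 16.34 and 16.64 with PVP. For both genes the 2 control females were low and the 2 PVP females close to the males, and the groups overlapped. PVP minus control was 1.93 for C8a (SE 0.70, limma adjusted p = 0.186) and 1.31 for C8b (SE 0.56, limma adjusted p = 0.225), and neither passed. With citrate, C8b had 0.93 (SE 0.56, limma adjusted p = 0.88). These values leaned on control replicate 4, without which C8a had 1.15 with PVP (SE 0.48) and C8b 0.27 with citrate (SE 0.33). With array quality as a covariate, C8a had 1.26 with PVP (SE 0.80, limma adjusted p = 0.62).

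C9, which forms the wall of the pore, had a difference of 1.04 with PVP (SE 0.52, limma adjusted p = 0.282), and C6, an early part of the pore, had 0.33 (SE 0.43, limma adjusted p = 0.67). C8g, the gamma chain that is bound to the alpha chain, differed in direction from the others, with -0.51 (SE 0.24, limma adjusted p = 0.268). Its 4 control values lay between 13.002 and 13.23, and 2 of the 4 PVP arrays, replicates 1 and 4, were lower, at 12.01 and 12.33. Those arrays are the 2 of lowest quality.

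**Figure D3:**
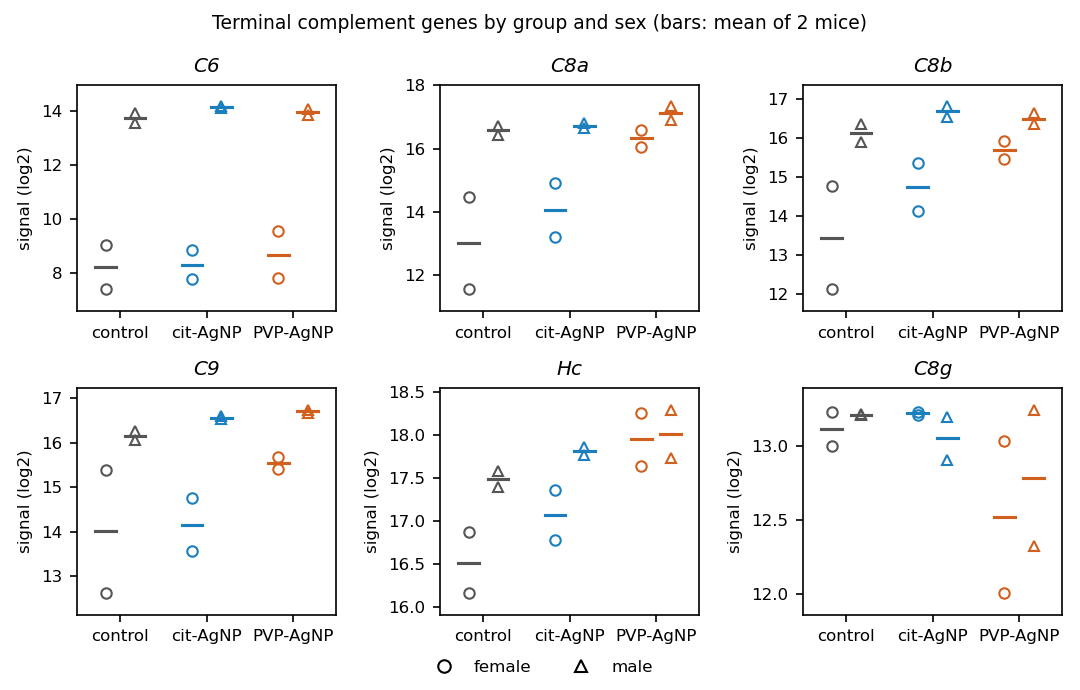
Log2 signal (vertical axes, each with its own scale that does not start at 0) of the 6 terminal complement genes in every mouse, by group and sex. Circles are females, triangles males, and bars the mean of 2 mice. In C6, C8a, C8b and C9 the control females lie below the control males, and in C8a and C8b the PVP females lie near the males.

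The means of the 3 complement inhibitors lay slightly above control with both coatings. C4bp, which inactivates the fourth component, had 0.61 with PVP (SE 0.26, limma adjusted p = 0.23). Serping1, the C1 inhibitor that blocks the first proteases of both complement and the contact system, had 0.25 (SE 0.14, limma adjusted p = 0.313). Cfi, which cleaves the deposited fragments, had 0.11 with PVP and 0.14 with citrate. None of the 3 passed with either coating.

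Among the clotting factors, F3 had the smallest p of the 35 genes with each coating. F3 encodes tissue factor, the membrane receptor that starts clotting at a wound and is kept away from blood in healthy vessels. Its log2 signals were 5.76, 5.60, 6.35 and 5.44 in control livers, 4.68, 4.99, 5.54 and 5.09 with citrate and 5.12, 4.75, 5.04 and 4.96 with PVP. All 4 PVP arrays lay below all 4 controls, and with citrate only replicate 3 reached into the control range. The log2 difference was -0.82 with PVP (SE 0.17, limma adjusted p = 0.0826) and -0.71 with citrate (SE 0.17, limma adjusted p = 0.312), and neither passed. Over 25 other settings, the adjusted p with PVP ran from 0.0634 to 0.29. F3 also had the lowest mean signal of the 35 genes. The stellate and endothelial markers lay lower with PVP as well, and their part in the value of F3 was not tested.

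The vitamin K-dependent procoagulants lay close to control. F2 (prothrombin), F7, F9 and F10 all lay above 0 with both coatings, with medians of 0.14 for PVP and 0.07 for citrate, and none reached an unadjusted p under 0.05. In the contact system, F11 gave 11.73, 11.93, 12.39 and 10.02 in control livers, 11.55, 11.42, 13.09 and 12.98 with citrate and 10.11, 12.14, 12.26 and 12.48 with PVP. F11 activates F9. The 2 citrate males were the highest of the 12, control replicate 4 and PVP-AgNP replicate 1 were the lowest, and the citrate difference of 0.74 did not pass (SE 0.46, limma adjusted p = 0.892). It was 0.43 without control replicate 4 and 1.14 without control replicate 2. F12 and Kng1, the starter of the contact system and its kininogen cofactor, had differences between -0.04 and 0.16, and Kng1 has a close copy in the mouse, Kng2, that its probes may not tell apart. F5, the cofactor of the prothrombin-cleaving protease, and F13b, the carrier subunit of the fibrin cross-linking enzyme, had differences between -0.17 and 0.09.

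The anticoagulants did not share a direction in the PVP group. Serpind1, or heparin cofactor II, an inhibitor of thrombin, had log2 signals of 16.98, 17.26, 17.06 and 16.96 in control livers, 16.97, 16.99, 16.83 and 16.96 with citrate and 16.52, 16.46, 16.80 and 16.95 with PVP. The 4 PVP arrays lay below the 4 controls, the females by more than the males. The margin was narrow, with 16.95 on PVP-AgNP replicate 4 and 16.955 on control replicate 4. The difference of -0.38 did not pass (SE 0.11, limma adjusted p = 0.146), nor did that of -0.13 with citrate (SE 0.11, limma adjusted p = 0.977), which was -0.04 without control replicate 2, -0.07 without cit-AgNP replicate 3 and 0.01 with quantile normalization. Pros1, or protein S, a cofactor of activated protein C, gave 9.53, 9.61, 10.17 and 9.37 in control livers, 9.88, 9.68, 9.93 and 10.09 with citrate and 10.74, 10.80, 9.88 and 10.40 with PVP. The 2 PVP females were the highest of the 12 arrays, PVP-AgNP replicate 3 lay within the control range, and the difference of 0.78 did not pass (SE 0.23, limma adjusted p = 0.146).

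Serpinc1, or antithrombin, the main inhibitor of the clotting proteases, had -0.42 with PVP (SE 0.17, limma adjusted p = 0.218). That value came from PVP-AgNP replicate 1, at 13.97, and replicate 2, at 14.83, against 15.001 on both PVP males and 15.001 to 15.29 in control livers. Proc, the precursor of activated protein C, and Proz, protein Z, had differences between -0.14 and 0.06 with either coating. In the fibrinolytic system, Plg and its inhibitor Serpinf2, or alpha-2-antiplasmin, lay between 0.05 and 0.27, and Hgfac, a protease that activates hepatocyte growth factor, had -0.10 with citrate and -0.43 with PVP, with no value past the threshold.

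**Figure D4:**
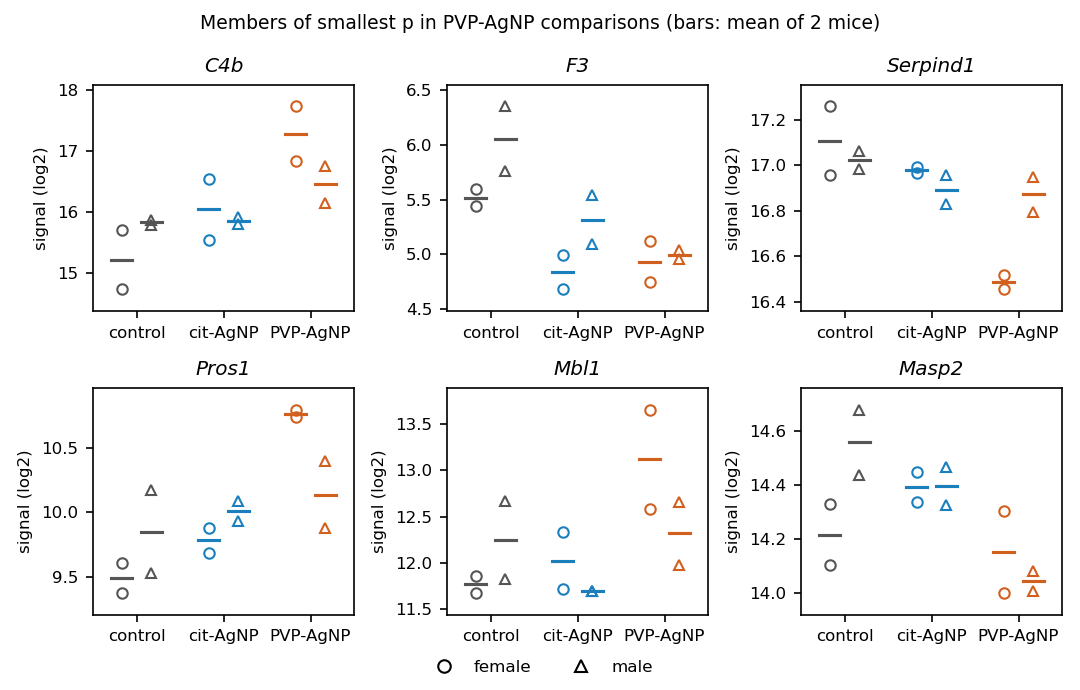
Log2 signal (vertical axes, each with its own scale that does not start at 0) of 6 genes of small p in the comparisons of the PVP group, in every mouse, by group and sex. Circles are females, triangles males, and bars the mean of 2 mice. C4b lies higher and F3 and Serpind1 lie lower in all 4 PVP mice than in all 4 control mice, Serpind1 by a narrow margin.

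Counts of genes whose groups did not overlap were small. With PVP, 2 of 35 lay wholly above control, Hc and C4b (2.98% of all genes tested), and 2 wholly below, F3 and, by a narrow margin, Serpind1 (4.92%). With citrate there was no such gene in either direction, against 1.93% above and 2.37% below.

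The comparison of the coatings with each other asked whether the surface of the particle mattered. Between PVP and citrate, 0 of 35 genes passed (limma, against 0% of all genes), 5 reached an unadjusted p under 0.05 (14.3%, against 14%), and the median difference was 0.09, against -0.0006 over all genes tested, with 22 of 35 genes above 0 (49.6% of all genes). The 5 were Mbl1 with 0.86 (SE 0.34, limma adjusted p = 0.331), C4b with 0.92 (SE 0.36, limma adjusted p = 0.332), Pros1 with 0.56 (SE 0.23, limma adjusted p = 0.346), Masp2 with -0.29 (SE 0.13, limma adjusted p = 0.346) and Serpind1 with -0.26 (SE 0.11, limma adjusted p = 0.354). Hc came next, with 0.54 (SE 0.25, limma adjusted p = 0.364). Without PVP-AgNP replicate 2, Mbl1 had 0.55 and Hc 0.32. Quantile normalization between arrays gave 0.22 for Hc (SE 0.22) and -0.49 for Serpind1 (SE 0.16). The count of 5 fell to 0 without cit-AgNP replicate 2, to 2 without any other 1 citrate array, and to 3 without control replicate 1 or without PVP-AgNP replicate 1, 2 or 4. Masp2 was the 1 gene whose PVP arrays all lay below the citrate arrays (4.84% of all genes tested). Without PVP-AgNP replicate 2 the median was -0.01, with 16 of 35 genes above 0, so the direction of the group median rested on that mouse. A p that misses the threshold does not show that the coatings acted alike: the 95% interval of the difference was 0.12 to 1.72 for C4b and -0.22 to 2.88 for C8a. These intervals are not adjusted for the number of genes tested, and the C4b difference did not pass.

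The clearest differences among these genes were between the sexes. Over all groups, 3 of 35 genes passed (limma, 8.57%, against 2.18% of all genes), and 13 reached an unadjusted p under 0.05 (37.1%, against 15.3%). C6 and C9 were lower in females (2 of 35, against 1.25%) and F7 was higher (1 of 35, against 0.931%). These were also the genes whose sexes did not overlap: 2 lower (1.38% of all genes) and 1 higher (0.906%). All 6 terminal genes lay below 0 in females minus males, where 42.7% of all genes lay above 0, with a median of -1.86, and 5 of them reached an unadjusted p under 0.05. With quantile normalization between arrays, 3 genes were higher in females (F7, F13b and Mbl2) and 1 lower (C6).

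C6 had by far the largest difference. Its 6 females had log2 signals from 7.39 to 9.55 with a median of 8.31, and its 6 males from 13.53 to 14.15 with a median of 13.99. The female mean was lower by 5.53 on the log2 scale (difference -5.53, SE 0.35, limma adjusted p = 1.48e-05). The gap was present in each group, at -5.51 among controls (limma adjusted p = 0.0193), -5.82 with citrate (limma adjusted p = 0.0156) and -5.26 with PVP (limma adjusted p = 0.0189). In each of these, 1 of 35 genes passed, against 0.16%, 0.19% and 0.37% of all genes in that order. C6 passed under each of 23 other settings, with adjusted p-values from 6.46e-06 to 0.0074.

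The other pore proteins followed with smaller gaps and wider spread. C9 ran from 12.62 to 15.67 in females, with a median of 15.07, and from 16.06 to 16.74 in males, with a median of 16.56. Its difference of -1.91 passed narrowly (SE 0.42, limma adjusted p = 0.0475). The call was lost when any 1 array was left out, with adjusted p-values from 0.0578 to 0.117, except control replicates 2 and 4, without which C9 passed. C8a ran from 11.55 to 16.59 in females and 16.44 to 17.33 in males, and C8b from 12.11 to 15.92 and 15.89 to 16.80. Their differences of -2.33 (SE 0.57, limma adjusted p = 0.0697) and -1.81 (SE 0.46, limma adjusted p = 0.0778) did not pass, and the sexes overlapped through PVP-AgNP replicate 2. C8b passed without control replicate 2 (limma adjusted p = 0.0486) and without control replicate 4 (limma adjusted p = 0.041). Hc had -0.59 (SE 0.20, limma adjusted p = 0.187), and C8g, with -0.07, showed no such gap.

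C6 and C9 are encoded on chromosome 15, and C8a and C8b are neighbours on chromosome 4 with no protein-coding gene between them. The stretches of 250 bases before the start sites of these 4 genes and of F7 are shown from the RefSeq table of GRCm38.p6, because C6, C9 and F7 passed between the sexes and C8a and C8b came next by p. Windows of 250 bases before to 50 after the start, for 30 of the 39 listed genes, were searched on both strands for 4 motifs of liver and cytokine-responsive factors. These were STAT (TTCNNNGAA), C/EBP (TTGCNNAA), HNF4 (CAAAGNNCA) and HNF1 (GTTAAT, any 2 bases, TT), and capitals below mark a match.
C6, chr15:4726960-4727209, plus strand: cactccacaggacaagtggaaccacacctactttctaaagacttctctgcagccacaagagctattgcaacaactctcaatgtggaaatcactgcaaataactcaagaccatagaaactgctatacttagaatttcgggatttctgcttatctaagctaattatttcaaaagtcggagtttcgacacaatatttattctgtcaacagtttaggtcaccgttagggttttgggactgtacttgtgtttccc
C8a, chr4:104876399-104876648, minus strand: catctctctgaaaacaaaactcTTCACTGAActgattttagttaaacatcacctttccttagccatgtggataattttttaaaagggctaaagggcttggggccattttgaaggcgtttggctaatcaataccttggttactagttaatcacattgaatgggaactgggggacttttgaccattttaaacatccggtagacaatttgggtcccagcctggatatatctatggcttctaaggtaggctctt
C8b, chr4:104766067-104766316, plus strand: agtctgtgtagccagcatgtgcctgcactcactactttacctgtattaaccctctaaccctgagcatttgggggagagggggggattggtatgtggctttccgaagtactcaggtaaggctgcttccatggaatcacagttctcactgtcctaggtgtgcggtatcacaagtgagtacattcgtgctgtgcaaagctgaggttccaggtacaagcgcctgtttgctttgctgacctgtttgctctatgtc
C9, chr15:6445096-6445345, plus strand: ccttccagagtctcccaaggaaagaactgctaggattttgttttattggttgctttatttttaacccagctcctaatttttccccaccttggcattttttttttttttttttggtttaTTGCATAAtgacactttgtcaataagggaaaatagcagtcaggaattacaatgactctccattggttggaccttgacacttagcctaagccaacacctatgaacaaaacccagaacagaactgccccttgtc
F7, chr8:13025784-13026033, plus strand: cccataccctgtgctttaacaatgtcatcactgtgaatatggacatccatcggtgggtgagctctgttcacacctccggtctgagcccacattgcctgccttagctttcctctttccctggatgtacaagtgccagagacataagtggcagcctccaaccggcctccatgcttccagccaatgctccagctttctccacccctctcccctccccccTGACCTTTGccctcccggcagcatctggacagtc
The capitals in C8a are a STAT match, those in C9 a C/EBP match and those in F7 an HNF4 match, while the windows of C6 and C8b held none of the 4. Over all 32851 windows the shares with a match were 8.3% for STAT, 10.8% for C/EBP, 6.36% for HNF4 and 1.03% for HNF1. Among the 30 listed genes, 5 had a STAT match (C8a, F9, Hgfac, Masp2 and Pros1), 7 a C/EBP match, 5 an HNF4 match and 4 an HNF1 match (C4bp, F13b, Hc and Hgfac). F9, Serpinc1 and Hgfac each held more than 1 of the 4 motifs, and no matches in a window overlapped. No motif was shared by the 4 terminal genes shown. A match describes letters in the window and is not evidence of binding.

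F7, the clotting protease that works with tissue factor, was higher in females. It ran from 12.58 to 13.36 in the 6 females, with a median of 12.74, and from 11.67 to 12.13 in the 6 males, with a median of 11.95. Its difference was 0.90 (SE 0.14, limma adjusted p = 0.00972), and it passed with any 1 array left out. Its neighbours on chromosome 8, F10 and Proz, had 0.21 and 0.27, and neither passed. Among the genes that did not pass, Mbl2, a second mannose-binding lectin, had 0.91 (SE 0.26, limma adjusted p = 0.108), with 15.92 to 17.40 in females and 15.05 to 15.93 in males, an overlap of the lowest female with the highest male. C2 had -0.62, F11 -1.29, Cfp 0.96, Hgfac 0.77, F13b 0.38 and F3 -0.36, each at an unadjusted p under 0.05 and with adjusted p-values of 0.116 to 0.242 (limma).

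Marker lists of other cells and of inflammation also differed in level between the sexes. The means of the immune cell markers lay higher in females. This held for all 8 Kupffer cell markers, with summed log2 signals of 11.63 to 14.53 against 11.63 to 12.28, and for all 7 tested neutrophil markers, with 9.52 to 12.69 against 7.51 to 10.14. None passed (limma, 5 and 2 at an unadjusted p under 0.05). Of the 20 acute phase genes, 17 lay higher in females, 13 of them at an unadjusted p under 0.05, with a median of 0.72, and Orm2 and Fgl1 passed, with 3.68 (SE 0.72, limma adjusted p = 0.0274) and 1.80 (SE 0.33, limma adjusted p = 0.0204). In control livers, however, the summed log2 signals of the acute phase genes were 21.165 and 20.94 in females and 21.098 and 20.945 in males. The highest were 22.728, 22.55 and 21.619, on the exposed females PVP-AgNP replicates 2 and 1 and cit-AgNP replicate 1. Orm2 and Fgl1 were higher in both control females than in both control males. Of 5 tested platelet and red cell markers, 3 lay higher in females and 1 passed in the other direction. That was Alas2, the heme synthesis enzyme of red cell precursors, with -2.94 (SE 0.26, limma adjusted p = 0.000211), from 7.38 to 8.88 in females and from 10.28 to 11.36 in males, so that it separated the sexes as C6 and C9 did. The part of the acute phase, of blood and of immune cells in the differences of C6, C9, F7 and, as a gene that leukocytes express, Cfp was not tested.

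**Figure D5:**
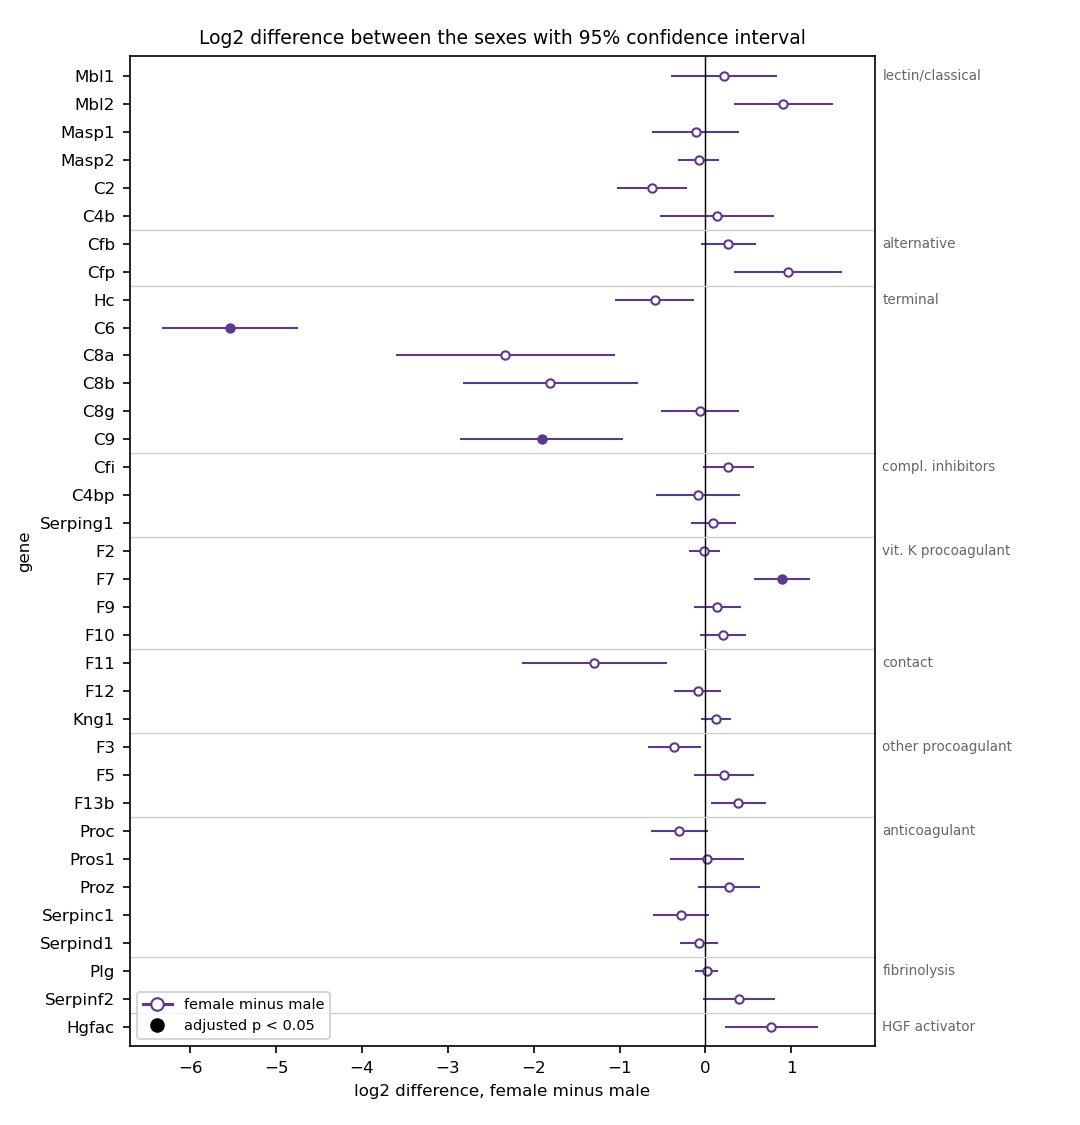
Log2 difference of females minus males over all groups (horizontal axis) with its unadjusted 95% confidence interval for each of the 35 genes (vertical axis, ordered by role). Filled points mark an adjusted p under 0.05: C6 at -5.53, C9 at -1.91 and F7 at 0.90. All 6 terminal genes lie below 0.

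Because each group held both sexes, the response to each coating could be compared between females and males, from 2 mice per mean. None of the 35 genes passed for either coating (limma, 0% of all genes in both tests). At an unadjusted p under 0.05 there were 5 with PVP (14.3%, against 3.62% of all genes) and 1 with citrate (2.86%, against 2.45%). With PVP, Serping1 had a response larger in females by 0.60 (SE 0.21), Pros1 by 0.99 (SE 0.36), Serpinf2 by 0.93 (SE 0.38) and C4b by 1.45 (SE 0.625), and Serpind1 had -0.47 (SE 0.17), each with a limma adjusted p of 1. Quantile normalization between arrays gave 0.84 for Serping1 (SE 0.34) and -0.23 for Serpind1 (SE 0.33). The log2 signals of Serping1 were 17.27 and 16.99 in control females, 17.50 and 17.86 in PVP females, 17.21 and 17.32 in control males and 17.17 and 17.27 in PVP males, so the groups separated in females and overlapped in males. A separation of 2 mice from 2 is weak evidence of a difference. With citrate, F13b had 0.67 (SE 0.29), Masp2 0.34 (SE 0.23) and Mbl1 0.80 (SE 0.60), also with a limma adjusted p of 1. Masp2 had 0.22 without control replicate 3. With 1 array left out, Mbl1 ran from 0.38 without control replicate 1 to 1.23 without control replicate 3. It had 0.23 (SE 0.90) with replicate number added to the fit as a block.

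Taken by sex, the PVP comparison gave more genes at an unadjusted p under 0.05 in females than in males, each count from 2 mice against 2. The female comparison holds both arrays that stood apart, control replicate 4 and PVP-AgNP replicate 2. The 5 differences in response to PVP at an unadjusted p under 0.05 became 2 when 1 or the other of them was left out, 2 without control replicate 3 or PVP-AgNP replicate 3, 3 without cit-AgNP replicate 3 or 4, 11 without control replicate 2 and 16 without PVP-AgNP replicate 1. Among females, 14 of the 35 genes reached an unadjusted p under 0.05 (40%, against 13% of all genes), 11 higher (4.58%) and 3 lower (8.43%), and 0 passed (limma, 0% of all genes). Among males there were 2 (8.01% of all genes), both lower (4.37%), and 0 passed (limma, 0% of all genes). C4b had 2.07 in females (SE 0.44, limma adjusted p = 0.222) and 0.62 in males (SE 0.44, limma adjusted p = 0.732). Pros1 had 1.28 (SE 0.26, limma adjusted p = 0.208) and 0.29 (SE 0.26, limma adjusted p = 0.778). F3 was the reverse in size, with -0.58 in females (SE 0.23) and -1.06 in males (SE 0.23).

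C8a had the largest PVP value in females, 3.31 (SE 0.86, limma adjusted p = 0.251) and 0.54 in males. The gap between the sexes in C8a was -3.55 in control livers, -2.66 with citrate and -0.78 with PVP, and the difference in response was 2.77 (SE 1.21, limma adjusted p = 1). C8b had gaps of -2.68, -1.94 and -0.80 in the same order, C9 of -2.15, -2.41 and -1.17 and Hc of -0.97, -0.74 and -0.06. None of the tests of a difference in response passed for these genes. Control replicate 4, the female with the lowest C8a, C8b, C9 and Hc of all 12 arrays, is 1 of the 2 mice behind each control female mean.

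The wider pathway was read from 71 further genes of complement, coagulation and fibrinolysis, of which 62 had a probe set of their own and 56 were tested. With citrate 0 of the 56 passed (limma, against 0.005% of all genes). At an unadjusted p under 0.05, 1 was higher and 1 lower, against 6.57% in both directions together. With PVP 0 of the 56 passed (limma, against 0.04%), and 4 were higher (8.05% of all genes) and 3 lower (12.2%) at an unadjusted p under 0.05. None of these counts exceeded the share of all genes. With citrate, Thbd, the endothelial receptor that turns thrombin into an anticoagulant, had 0.72 (SE 0.21, limma adjusted p = 0.446), the plasminogen receptor Plgrkt -0.23, the platelet-binding matrix protein Thbs1 0.31 and the C1r-like protease gene C1rl -0.31. Thbd had 0.48 without cit-AgNP replicate 2, Plgrkt had -0.15 without control replicate 3, and Thbs1 had 0.14 without cit-AgNP replicate 4. With PVP, the receptor C5ar2 for the peptide released from Hc had 0.41 (SE 0.13, limma adjusted p = 0.155) and the terminal gene C7 had 0.35 (SE 0.11, limma adjusted p = 0.157). C5ar2 had 0.24 with array quality as a covariate (limma adjusted p = 0.54). Both genes gave weak signals, not far above the filter at 3.93, and were highest on PVP-AgNP replicate 1, at 5.22 and 4.99. The pore inhibitors Cd59a and Cd59b had -0.94 and -0.43, which became -0.37 and -0.15 without the 2 arrays of lowest quality. Between the sexes, Plgrkt was higher in females by 0.33 (SE 0.07, limma adjusted p = 0.0379) and Susd4, a complement regulator, was lower, with -1.72 (SE 0.34, limma adjusted p = 0.0296). They alone of the 56 passed, 1 in each direction, against 0.931% higher and 1.25% lower of all genes.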

How the data were processed

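Liver RNA of 12 mice, 4 in each of 3 groups, was measured on Affymetrix whole-transcript arrays, 1 array per mouse. The deposited tables hold log2 signals per probe set for 72688 probe sets. The submitters' processing notes name RMA and Transcriptome Analysis Console 4.0.1.36, and the genome build is not given in the sources used here. The number of arrays limits the precision.

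GEO's annotation gave 1 gene for 30604 probe sets, several for 2146 and none for 39938, and 1135 symbols were updated through RefSeq. The probe set of highest mean stood for each of 30063 genes, and the 19985 genes whose mean exceeded a log2 of 3.93, the 40th percentile over the probe sets, were tested. limma 3.58.1 in R 4.3.3 (lmFit, eBayes with trend) fitted group and sex over the 12 arrays, and group by sex for differences in response, with Benjamini-Hochberg adjustment over all genes tested. Groups came from GEO's titles. The code was tested on simulated data.

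The listed genes, the further gene lists and the tests were chosen with earlier results of these data known. Values were given array by array for genes past the threshold in a comparison, filled up to 6 by smallest p, for the 3 of smallest p in each difference in response, and up to 4 genes of the wider pathway. Alternatives covered the filter, array scaling, probe set choice, variance model, sex term, samples fitted, array quality, ceiling, pairing and leaving out each array. No explanation was tested.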

Additional observations from a re-analysis of the deposited data

Results flagged for a closer look

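In 18 of 105 combinations of gene and group, 1 of the 4 mice lay far from the other 3, measured as its gap to the nearest divided by the range of the group. Chance flags about 1 in 20 such groups, and 12 of the 35 genes were involved. All genes were measured in the same mice, some of which recur among the flags, and the share over all genes tested was not counted. The count of 18 therefore cannot be read as a trait of these genes. Several of the combinations hold identical values on 3 arrays, which makes any other value stand apart. No test of a difference in response between the sexes passed.

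Control replicate 4 was low for C4b (log2 14.728, others 15.699 to 15.874), C4bp (15.635, others 16.381 to 16.533), F2 (16.867, others 17.207) and Plg (19.415, others 19.606), and high for F5 (16.749, others 16.41 to 16.433). In the other control mice, replicate 1 was low for Cfi (17.769, others 18.127 to 18.15) and replicate 2 for C8g (13.002, others 13.212 to 13.23). With citrate, replicate 1 was high for Mbl1 (12.334, others 11.696 to 11.715), Cfi (18.3, others 18.141 to 18.166), Serpinf2 (16.508, others 16.079 to 16.145) and, by a margin of little size, Plg (19.613, others 19.606), and low for Serpinc1 (14.888, others 15.001). Citrate replicate 3 was low for C8g (12.908, others 13.2 to 13.232) and replicate 4 for F2 (17.115, others 17.194 to 17.207). With PVP, replicate 1 was low for F11 (10.106, others 12.14 to 12.475) and Serpinc1 (13.972, others 14.831 to 15.001), and replicate 2 was high for F10 (13.316, others 12.782 to 12.849) and Plg (19.874, others 19.606).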

How the results depend on the processing

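For both coatings against control, for PVP against citrate and for the differences in response, 0 of the 35 genes passed under any alternative run. Between the sexes 3 passed, against 1 with a replicate block, 8 with array quality as a covariate, 5 without control replicate 2 and 2 to 5 over all arrays left out. The labels do not pair the mice, and replicates 1 and 4 differ in sex between control and exposed groups. Correlations of the deviations of same-numbered mice from their group means ran from -0.515 to 0.526. These deviations keep the difference between the sexes, and pairs of different sex were all negative and pairs of the same sex all positive. The correlations thus cannot show whether replicate numbers pair the mice. With the replicate block F7 had 0.75 (limma adjusted p = 0.392) and C9 an adjusted p of 0.254 (limma), while C6 passed under all 23 alternatives. C9 did not pass in 14 of the 23, among them no filter (limma adjusted p = 0.0625), quantile normalization (limma adjusted p = 0.0564) and without the 2 arrays of lowest quality (limma adjusted p = 0.0946). C8a passed with array quality as a covariate (limma adjusted p = 0.0458), as did C8b (limma adjusted p = 0.0487). The number of PVP genes at an unadjusted p under 0.05 ran from 6 to 11, that between PVP and citrate from 0 to 7, and that of differences in response from 0 to 16 for PVP and from 0 to 5 for citrate. The cause was not tested. The fit of sex without a sex term, and of sex within 2 groups, gives no value.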

Other observations

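The 3 fibrinogen genes, Fga, Fgb and Fgg, whose product forms the clot, and Pzp, an inhibitor of many proteases, stood at 19.932, the ceiling of the table, on all 12 arrays, so no difference between groups can be read for them. The probe set that names both Klkb1, the plasma kallikrein of the contact system, and Cyp4v3 had a log2 signal of 15.67 ± 0.38 in control livers, 15.55 ± 0.35 with citrate and 15.26 ± 0.84 with PVP (mean ± SD, n = 4 each). Its lowest arrays were the PVP females, at 14.28 and 14.87. C2 had a second probe set naming it alone, with a mean of 3.88 over the 12 arrays against 10.16 for the first.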
